A study of Mus musculus with 31 samples.

Results

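The genes described here encode tubulin isotypes, the separate versions of the α and β chains whose pairs polymerize into microtubules. They were Tuba1a, Tuba1b, Tuba1c, Tuba4a, Tubb2a, Tubb2b, Tubb3, Tubb4a, Tubb5 and Tubb6, found by the gene symbol that the annotation gives for each probe set of the array. Of these 10 genes, 8 had a probe set listed for them alone, and together they had 13 of the 45101 probe sets. All 13 passed the filter on low signals, as did 26877 of 45037 mouse probe sets. Tuba1b and Tuba1c lay only on probe sets that are also listed for the pseudogenes Gm5620 and Gm6682. These and the other probe sets shared with a second gene, 5 in all, were kept apart and not counted as members. Whether a probe set listed for 1 gene also binds RNA of related isotypes was not tested. On GRCm38.p6, RefSeq places Tubb2a at 13:34074278-34078008 and Tubb2b nearby at 13:34127008-34130354. Tubb5 lies at 17:35833920-35838301 and Tubb4a at 17:57080061-57087600, Tubb3 at 8:123411553-123422015, Tuba1a at 15:98949847-98953501 and Tuba4a at 1:75214972-75221261.

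Every microtubule is a hollow tube of αβ dimers, and the isotypes differ mainly in their carboxy-terminal tails, where motor proteins and modifying enzymes act. Tubb3 is nearly restricted to neurons in the brain, and Tuba1a and Tubb2b are high in newly formed neurons, where mutations of the human genes disturb the layering of the cortex. Tubb4a is found in neurons and in myelinating oligodendrocytes, Tubb5 in many cell types including dividing progenitors, and Tubb6 mostly outside neurons.

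RNA of the homogenized hippocampus was measured in 31 male C57BL/6 mice, 1 mouse per array. Glud1 Tg mice, which over-express the glutamate dehydrogenase 1 gene in neurons of the CNS and nowhere else, were set against wt mice of the same background at 10 days, 4.5, 9, 14.5 and 20 months of age, with no treatment in either genotype. Each group held 3 mice, apart from 4 wt mice at 10 days, where the methods state 3. The array's Glud1 probe sets lie in the 3′ end that the transgene lacks, so they did not check the genotype labels.

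The deposited MAS5 signals had array medians of 91.4 to 140 and were used on the log2 scale after quantile normalization over the 31 arrays, on which every array has a median of 6.84. The highest signal on an array differed by age, at 31049 to 40485 at 10 days, 40849 to 51914 at 4.5 months, 49135 to 57995 at 9 months, 22626 to 26606 at 14.5 months and 37192 to 41845 at 20 months. Age and the processing of its arrays cannot be told apart. The ratio of the 3′ to the 5′ control probe set of Gapdh, which moves with RNA quality, was -0.08 to 0.02 (log2) at 4.5 months and -0.46 to -0.14 at the other ages, and the β-actin ratio was highest at 9 months, at 0.71 to 0.96. Between neighbouring ages the Gapdh ratio differed at 4.5 months against 10 days, 9 against 4.5 months and 20 against 14.5 months. The β-actin ratio differed at 9 against 4.5, 14.5 against 9 and 20 against 14.5 months (exact two-sided permutation test, adjusted p = 0.0065 for each). Their part in the age changes was not tested. Between Tg and wt, 3 mice against 3 allow no p below 0.1 in this test, so the ratios could not pass it at most ages. At 9 months the β-actin ratio was 0.71, 0.74 and 0.76 in Tg and 0.90, 0.96 and 0.77 in wt mice, with every Tg below every wt mouse (exact p = 0.1). Choroid plexus marker sums ran from 766 to 49112 over the arrays, and their part in the results was not tested. In whole hippocampus, fewer cells of a type and less RNA per cell cannot be told apart.

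Upstream sequence is shown for Tubb3, Tuba1a, Tubb5 and Tubb4a, which with Tubb2b had the widest spans of group means on the probe sets that show the 8 genes. Tubb2b is named only, since the table used has no entry for it. Each is given as the 250 bases before the RefSeq transcription start (GRCm38.p6). Capitals mark a GC box, spelled GGGCGG, a box of the letters CCAAT, or a TATA box, spelled TATAAA, on either strand. An E-box is the motif CANNTG, which the neurogenic basic helix-loop-helix factors bind; it was counted as well and is not in capitals.
Tubb3, chr8:123411303-123411552, plus strand: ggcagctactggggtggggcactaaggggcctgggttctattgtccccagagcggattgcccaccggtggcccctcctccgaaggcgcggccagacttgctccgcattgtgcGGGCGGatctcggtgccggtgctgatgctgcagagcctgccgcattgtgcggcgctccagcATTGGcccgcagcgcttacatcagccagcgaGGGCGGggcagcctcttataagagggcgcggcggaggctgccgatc
Tuba1a, chr15:98953502-98953751, minus strand: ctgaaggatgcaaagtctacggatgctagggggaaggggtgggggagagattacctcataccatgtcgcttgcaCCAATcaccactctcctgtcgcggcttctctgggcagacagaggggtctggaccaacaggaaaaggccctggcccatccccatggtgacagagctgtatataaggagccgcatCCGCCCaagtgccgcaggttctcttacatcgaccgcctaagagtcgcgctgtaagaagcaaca
Tubb5, chr17:35838302-35838551, minus strand: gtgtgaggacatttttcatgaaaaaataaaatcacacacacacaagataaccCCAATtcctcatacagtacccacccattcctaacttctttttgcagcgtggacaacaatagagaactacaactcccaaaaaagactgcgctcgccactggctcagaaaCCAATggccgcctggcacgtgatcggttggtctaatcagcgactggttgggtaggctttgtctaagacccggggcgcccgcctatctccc
Tubb4a, chr17:57087601-57087850, minus strand: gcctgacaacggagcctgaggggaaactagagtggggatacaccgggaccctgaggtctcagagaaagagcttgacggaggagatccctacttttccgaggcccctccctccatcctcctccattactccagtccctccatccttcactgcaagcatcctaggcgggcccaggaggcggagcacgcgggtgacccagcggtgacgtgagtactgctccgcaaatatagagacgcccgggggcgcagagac

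The Tubb3 window held 2 GC boxes and 1 CCAAT box, and 68.0% of its bases were G or C. The Tuba1a window held 1 GC box, 1 CCAAT box and 1 E-box at 56.8% G or C, and that of Tubb5 held 2 CCAAT boxes and 1 E-box at 49.2%. None of the 4 motifs was present in the Tubb4a window, at 61.6% G or C. Over 32851 windows of the same length, 32.7% held a GC box, 33.8% a CCAAT box, 12.4% a TATA box and 66.2% an E-box, and the median share of G or C was 52.4%. Of the windows not printed, that of Tubb2a held the only TATA box among the isotypes looked at, 29 bases before the start. A match of letters is a description and not a measured site.

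From 10 days to 4.5 months, the step from the early postnatal to the young adult hippocampus, the isotypes moved apart. Tubb3, Tubb2b, Tubb5, Tuba1a and Tubb2a were lower at 4.5 months, 5 of 8 genes, where 35.5% of 12844 genes were lower. Tubb4a and Tuba4a were higher, 2 of 8, where 31.2% of all genes were higher (limma with Benjamini-Hochberg adjustment over the probe sets tested, adjusted p under 0.05). The median change of the 8 isotypes was -0.63 on the log2 scale, against -0.04 over all genes. The isotypes had been proposed with age changes of these data known, so their directions are a description of these genes.

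Tubb3, the neuronal class III β-tubulin, had the largest change on this scale among the probe sets that show the 8 genes. Its normalized log2 signals at 4.5 months were 10.90, 10.47 and 10.83 in Tg and 10.95, 10.74 and 11.00 in wt mice. At 10 days they were 13.30, 13.30 and 13.13 in Tg and 13.20, 13.21, 13.25 and 13.28 in wt mice. Every mouse at 4.5 months lay below every mouse at 10 days, in both genotypes. As deposited, the signals were 1413 to 2023 at 4.5 months and 9859 to 11611 at 10 days. Tubb3 fell by 2.42 ± 0.08 (SE, 6 against 7 mice, adjusted p = 1.0e-20), 5.36-fold, with a fall of 2.51 ± 0.12 in Tg and 2.34 ± 0.11 in wt mice.

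Tubb2b, a β-tubulin of migrating and axon-growing neurons, had log2 signals of 12.03, 11.95 and 11.99 in Tg and 11.63, 11.94 and 11.55 in wt mice at 4.5 months. At 10 days it had 13.89, 14.54 and 13.98 in Tg and 14.16, 14.32, 13.88 and 14.28 in wt mice. The ages did not overlap, and Tubb2b fell by 2.30 ± 0.10 (adjusted p = 1.6e-16), 4.93-fold. The probe set listed for both Tubb2b and the pseudogene Tubb2a-ps2 fell by 4.18 ± 0.11 (adjusted p = 1.8e-21), from which the share of Tubb2b cannot be told.

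Tubb5, the widely expressed β-tubulin of dividing and differentiating cells, had log2 signals of 13.23, 13.18 and 13.18 in Tg and 13.39, 13.30 and 13.50 in wt mice at 4.5 months. At 10 days it had 14.51, 14.34 and 14.36 in Tg and 14.40, 14.36, 14.43 and 14.36 in wt mice. The ages were again apart, by 1.10 ± 0.04 (adjusted p = 8.2e-21), a fall of 2.14-fold, and a further probe set of Tubb5 fell by 1.01 ± 0.09.

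Tuba1a, the main α-tubulin of young neurons, had log2 signals of 14.08 to 14.22 at 4.5 months (median 14.14) and 14.94 to 15.11 at 10 days (median 15.06). It fell by 0.90 ± 0.04 (adjusted p = 4.7e-19), 1.86-fold, with no overlap between the ages. On the arrays at 10 days this probe set ranked 2 to 6 among the probe sets of the array, with deposited signals of 30685 to 40221 where the highest on an array were 31049 to 40485, so the size of its fall is read at the top of the scale. Tubb2a, the closest relative of Tubb2b, had 13.86 to 14.09 at 4.5 months and 14.28 to 14.45 at 10 days and fell by 0.36 ± 0.04 (adjusted p = 3.5e-09). Its dimmer probe set did not pass the test, at -0.16 ± 0.16 (adjusted p = 0.41), so the fall of Tubb2a rests on the brighter one.

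Tubb4a went the other way. Its log2 signals at 4.5 months were 13.40, 13.50 and 13.38 in Tg and 13.62, 13.50 and 13.31 in wt mice. At 10 days they were 12.04, 12.05 and 12.23 in Tg and 11.96, 11.98, 11.88 and 12.11 in wt mice. Every adult lay above every pup. The gene rose by 1.41 ± 0.05 (adjusted p = 1.5e-20), 2.65-fold, and the rise was 1.32 ± 0.07 in Tg and 1.50 ± 0.07 in wt mice.

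For Tuba4a, the α-tubulin whose gene does not encode the terminal tyrosine, the 3 probe sets differed. The brightest rose by 0.29 ± 0.04 (adjusted p = 1.6e-07), from signals of 14.06 to 14.18 at 4.5 months and 13.66 to 13.99 at 10 days. On the deposited scale, without quantile normalization, this rise was 0.08 ± 0.06 and did not pass the test (adjusted p = 0.19). The next was at -0.01 ± 0.03 (adjusted p = 0.85), and the dimmest rose by 1.54 ± 0.27 (adjusted p = 1.5e-05). Whether Tuba4a rose, and by how much, thus differed with the probe set, and none had a fall that passed the test. The value of the dimmest includes wt replicate 1 at 10 days, at 4.79 where the other 3 wt mice had 6.99 to 7.11.

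Tubb6 was dim, and its 2 probe sets disagreed. The brighter one, by which the gene is shown, had signals of 6.80 to 7.27 at 4.5 months and 6.75 to 7.71 at 10 days, which overlap (-0.21 ± 0.18, adjusted p = 0.33). The other, which was added after its values were seen, had 2.52 to 5.90 at 4.5 months and 7.31 to 8.20 at 10 days and fell by 3.91 ± 0.62 (adjusted p = 2.8e-06). The array median is 6.84, so this probe set lay above it at 10 days and below it at 4.5 months in every mouse. Its highest signals at 9, 14.5 and 20 months were 5.64, 6.11 and 6.03, so only the mice at 10 days carried it through the filter on low signals. A probe set let in this way could hardly have shown a rise, so its p is no support for the fall. The size of the fall rests on the values below the median.

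**Figure D1:**
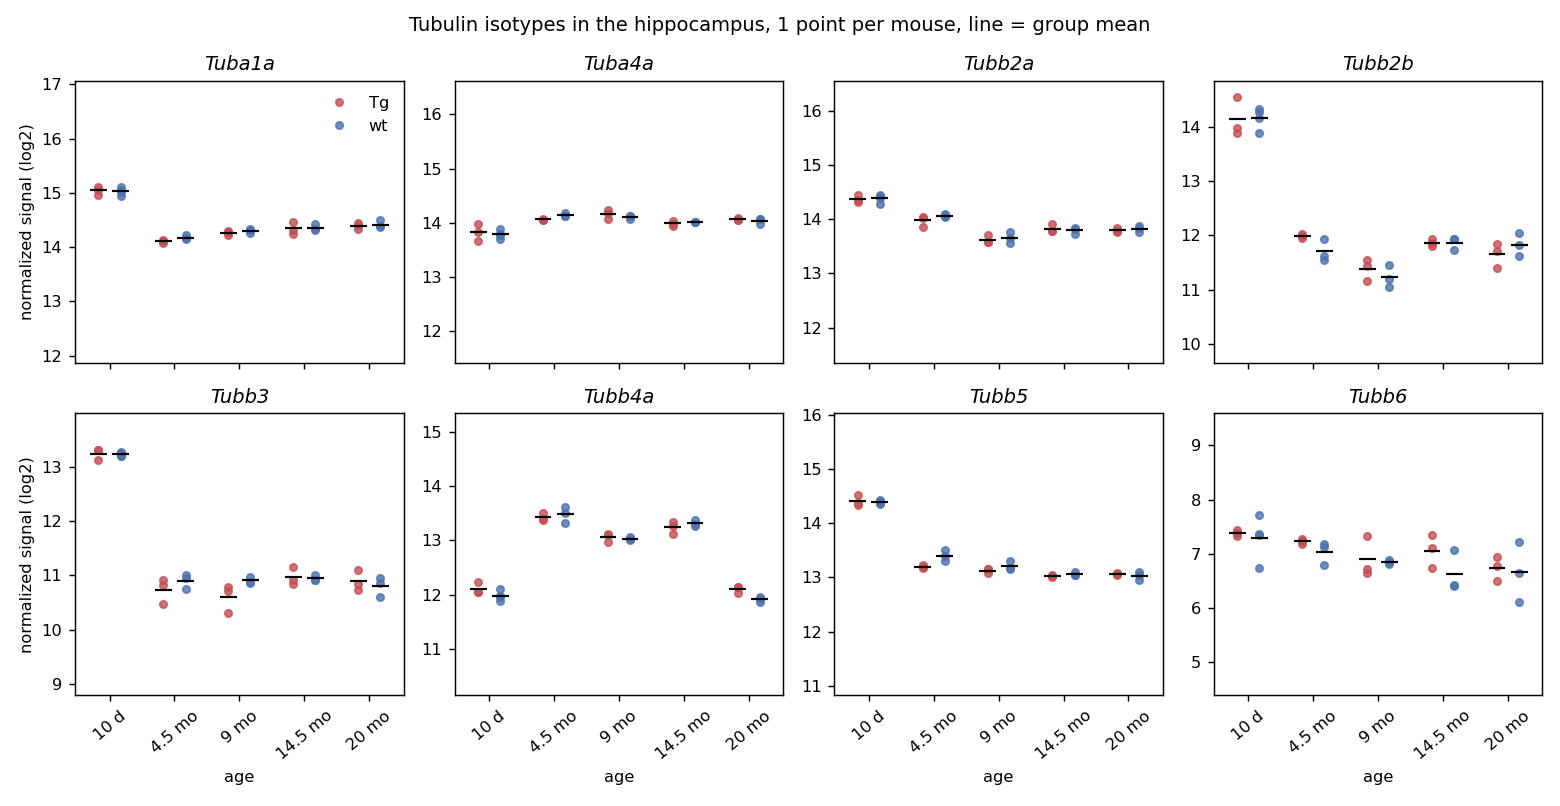
Normalized log2 signal (y axis, each panel spans the same range) of the 8 isotypes against age (x axis), with Tg mice left of wt mice, 1 point per mouse and a line at the group mean. Tubb3, Tubb2b, Tubb5 and Tuba1a stand highest at 10 days, whereas Tubb4a is high at 4.5, 9 and 14.5 months and lower at 10 days and 20 months.

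The shared probe sets went down too. The Tuba1b probe set shared with Gm5620 fell by 0.13 ± 0.03 (adjusted p = 6.3e-04), with signals of 14.45 to 14.56 at 4.5 months and 14.56 to 14.75 at 10 days. The Tuba1c probe sets shared with Gm6682 fell by 1.11 ± 0.25 and 0.71 ± 0.24, but their signals were dim and overlapped between the ages. The first had 6.35 to 8.24 at 4.5 months and 7.49 to 8.53 at 10 days, the second 6.00 to 7.31 and 6.76 to 7.81. Group means of the first went from 7.95 at 10 days to 7.35 at 4.5 months in Tg mice, and from 8.11 to 6.49 in wt mice. In the F-test of age within a genotype, the first had an adjusted p of 0.52 in Tg and 0.0013 in wt mice. The second had 0.43 in Tg and 0.16 in wt mice. The probe set listed for Gm6682 and Tuba1a fell by 0.91 ± 0.25 (adjusted p = 0.0021), with signals of 6.07 to 6.82 at 4.5 months and 6.10 to 7.73 at 10 days. These overlap and lie around the array median of 6.84, so the size of this fall is uncertain and is no check on that of Tuba1a alone.

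**Figure D2:**
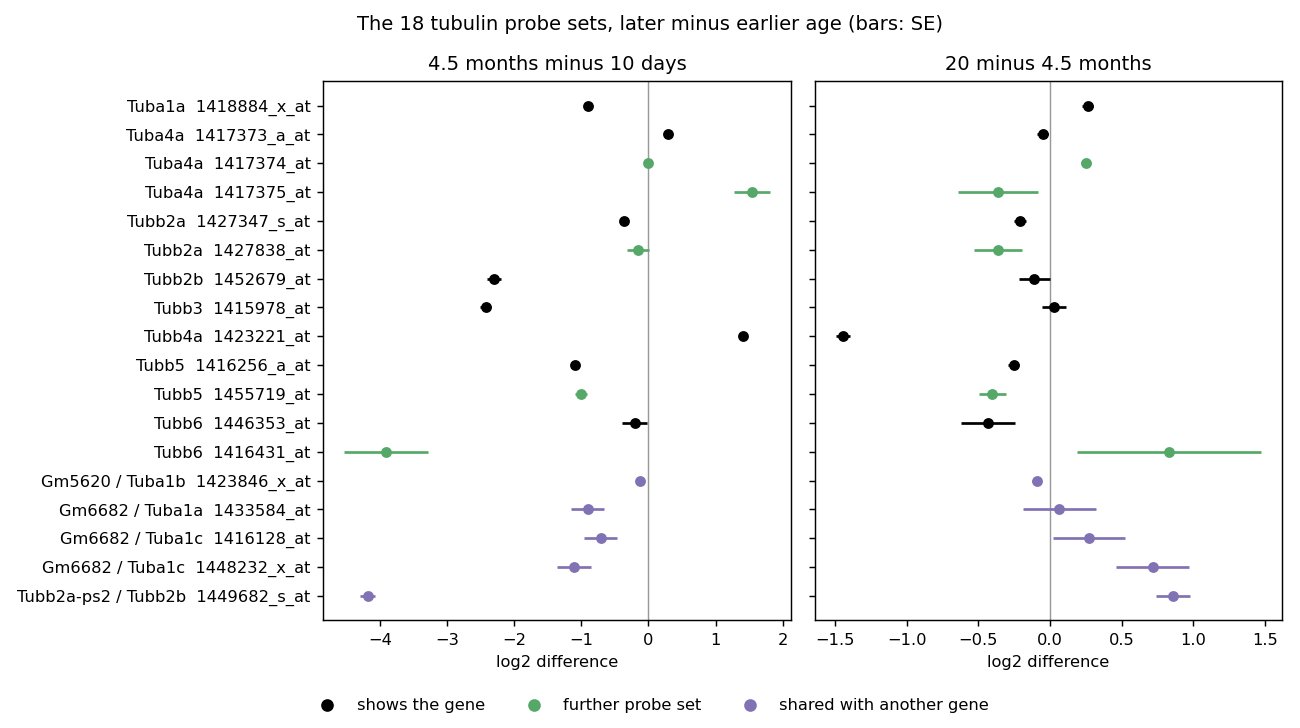
Log2 difference between ages (x axis, bars show the SE) for each of the 18 tubulin probe sets (y axis), at left 4.5 months minus 10 days and at right 20 minus 4.5 months. Black points show a gene, green points are its further probe sets and purple points are shared with another gene; the probe sets of Tuba4a, Tubb6 and Tubb2b spread apart.

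Cell type markers moved over the same step. Of 8 markers of immature neurons 7 fell and none rose, with Dcx, the microtubule-binding doublecortin of migrating neurons, down by 3.57 ± 0.10, and their summed signal was 15584 to 17932 at 4.5 months and 52052 to 55635 at 10 days. All 7 tested markers of dividing cells fell, with sums of 2582 to 3054 at 4.5 months and 5503 to 6255 at 10 days. All 9 tested markers of oligodendrocytes and myelin rose, with a median of 3.58, Mal by 5.46 ± 0.13, and sums of 57074 to 78370 at 4.5 months and 6756 to 12954 at 10 days. Of 8 neuronal markers 6 rose and 2 fell, with sums of 101102 to 108131 at 4.5 months and 78377 to 86765 at 10 days. Over all genes 35.5% were lower and 31.2% higher at this step. Markers that passed the filter on low signals only through the age where they were high could hardly have moved the other way. Which markers these were was not looked at. The part of the markers in the tubulin changes was not tested.

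In adult life Tubb3, Tubb2b, Tubb5 and Tuba1a changed less than before 4.5 months, whereas Tubb4a changed by as much. Between 20 and 4.5 months, the span of adult aging, Tuba1a was higher, 1 of 8 genes, where 22.4% of all genes were higher. Tubb4a, Tubb5 and Tubb2a were lower, 3 of 8, where 19.9% of all genes were lower. The median change of the 8 isotypes was -0.16, against 0.03 over all genes. Tubb3 and Tubb2b, which had fallen most before 4.5 months, did not pass the test, at 0.03 ± 0.08 (adjusted p = 0.81) and -0.11 ± 0.11 (adjusted p = 0.46). The probe set that Tubb2b shares with Tubb2a-ps2 rose by 0.86 ± 0.12 over this span (adjusted p = 1.1e-06).

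Tubb4a held a high level through 14.5 months and was low at 20 months. At 9 months its signals were 13.10, 13.11 and 12.97 in Tg and 13.05, 13.02 and 13.01 in wt mice. At 14.5 months they were 13.12, 13.26 and 13.33 in Tg and 13.30, 13.27 and 13.37 in wt mice, and at 20 months 12.15, 12.03 and 12.14 in Tg and 11.93, 11.87 and 11.95 in wt mice. No mouse at 20 months reached the lowest signal of the 3 adult ages before it, and the range at 20 months, 11.87 to 12.15, overlapped that at 10 days, 11.88 to 12.23. Tubb4a at 20 months was lower by 1.26 ± 0.05 than at 14.5 months (adjusted p = 1.2e-17), 2.40-fold, and lower by 1.44 ± 0.05 than at 4.5 months (adjusted p = 2.7e-19), 2.72-fold. The fall between 20 and 4.5 months was 1.32 ± 0.07 in Tg and 1.56 ± 0.07 in wt mice. On the deposited scale the step between 20 and 14.5 months was -1.04 ± 0.06, and the deposited signals were 3690 to 4570 at 20 months and 7674 to 8831 at 14.5 months. The array has no second probe set of Tubb4a. From 14.5 to 20 months the mean 3′ to 5′ ratio (log2) moved by -0.06 for Gapdh and 0.16 for β-actin, and the part of this in the fall was not tested.

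Markers of oligodendrocytes and of neurons did not share one direction over the step from 14.5 to 20 months. The summed signal of oligodendrocyte and myelin markers was 64232 to 74562 at 20 months and 60380 to 69912 at 14.5 months, and of 9 tested only Mag, a myelin adhesion protein, changed, by -0.35 ± 0.13. Without quantile normalization none of the 9 fell and 2 rose. Of 8 neuronal markers 4 fell and 1 rose, with Eno2 down by 0.55 ± 0.04 and Syn1, a synaptic vesicle protein, by 0.58 ± 0.05, and their sums were 89471 to 92607 at 20 months and 98182 to 106236 at 14.5 months. Without quantile normalization 3 neuronal markers fell and 3 rose. Over all genes 15.3% were lower and 18.3% higher at this step. The part of the markers in the fall of Tubb4a was not tested.

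Tubb5 was lower at 20 than at 4.5 months by 0.25 ± 0.04 (adjusted p = 3.0e-06), with 12.95 to 13.10 at 20 months and 13.18 to 13.50 at 4.5 months, and its further probe set by 0.40 ± 0.10. The fall was 0.14 ± 0.05 in Tg (adjusted p = 0.062) and 0.37 ± 0.05 in wt mice, a difference of 0.23 ± 0.08 that did not pass the test (adjusted p = 0.72). Over both genotypes it was 0.15 ± 0.05 on the deposited scale. Tuba1a was higher at 20 months by 0.26 ± 0.04 (adjusted p = 1.1e-06), with 14.33 to 14.49 at 20 months and 14.08 to 14.22 at 4.5 months, which left it below all mice at 10 days. Tubb2a was lower by 0.21 ± 0.04 (adjusted p = 1.1e-04), but on the deposited scale by 0.10 ± 0.05, which did not pass the test (adjusted p = 0.11). The probe set that shows Tuba4a was at -0.05 ± 0.04 (adjusted p = 0.34), whereas a further one rose by 0.25 ± 0.03 (adjusted p = 9.3e-07). Tubb6 was at -0.43 ± 0.19 (adjusted p = 0.073), and passed the test on the deposited scale at -0.50 ± 0.19 (adjusted p = 0.033).

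The steps between neighbouring adult ages were mostly under 0.6. Between 9 and 4.5 months 1 isotype, Tuba1a, was higher, where 20.6% of all genes were higher, and 4 were lower, where 24.3% of all genes were lower. Tubb2b was lower by 0.55 ± 0.11, with 11.54, 11.16 and 11.43 in Tg and 11.04, 11.20 and 11.45 in wt mice at 9 months, all below the 11.55 to 12.03 at 4.5 months. Tubb4a was lower by 0.41 ± 0.05, Tubb2a by 0.38 ± 0.04 and Tubb5 by 0.13 ± 0.04, and Tuba1a was higher by 0.14 ± 0.04. As deposited, 2 isotypes were higher, Tuba1a by 0.48 ± 0.05 and Tuba4a by 0.37 ± 0.06 (against 0.04 ± 0.04 after quantile normalization). There 3 were lower, with Tubb4a at -0.24 ± 0.06 and Tubb2a at -0.16 ± 0.05, while Tubb5 was at 0.05 ± 0.05 (adjusted p = 0.47). The probe set that Tubb2b shares with Tubb2a-ps2 rose by 0.51 ± 0.12 over the same step (adjusted p = 8.3e-04), opposite to the probe set of Tubb2b alone.

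Between 14.5 and 9 months Tubb2b, Tubb4a, Tubb3 and Tubb2a were higher, 4 of 8, where 26.3% of all genes were higher. Tuba4a and Tubb5 were lower, 2 of 8, where 21.9% of all genes were lower. Tubb2b was higher by 0.56 ± 0.11 (adjusted p = 1.1e-04), with 11.80, 11.85 and 11.93 in Tg and 11.73, 11.93 and 11.93 in wt mice at 14.5 months, all above the 11.04 to 11.54 at 9 months. Tubb3 was higher by 0.20 ± 0.08 (adjusted p = 0.044), a call that was lost when any of 7 of the 12 arrays compared was left out (0.13 without Tg replicate 2 at 9 months). On the deposited scale 2 isotypes were higher and 4 lower. There Tubb2a was at -0.32 ± 0.05, Tuba1a at -0.70 ± 0.05 and Tubb4a at -0.09 ± 0.06, all of the opposite sign to their values after quantile normalization. For Tuba4a and Tubb5 the sign was kept, at -0.80 ± 0.06 and -0.41 ± 0.05 against -0.14 ± 0.04 and -0.12 ± 0.04 after quantile normalization.

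Between 20 and 14.5 months Tubb4a was the 1 isotype that was lower, where 15.3% of all genes were lower, and 0 of 8 were higher, where 18.3% of all genes were higher. The other 7 isotypes lay between -0.15 and 0.05, and Tubb4a was also the 1 of 8 with an unadjusted p under 0.05. On the deposited scale 4 were higher, namely Tuba1a by 0.55 ± 0.05, Tuba4a by 0.46 ± 0.06, Tubb2a by 0.38 ± 0.05 and Tubb5 by 0.21 ± 0.05, and Tubb4a was again the 1 that was lower. The highest signal on the arrays was 37192 to 41845 at 20 months and 22626 to 26606 at 14.5 months. The shared Tuba1b probe set was lower by 0.31 ± 0.03 at 14.5 than at 9 months and higher by 0.22 ± 0.03 at 20 than at 14.5 months.

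**Figure D3:**
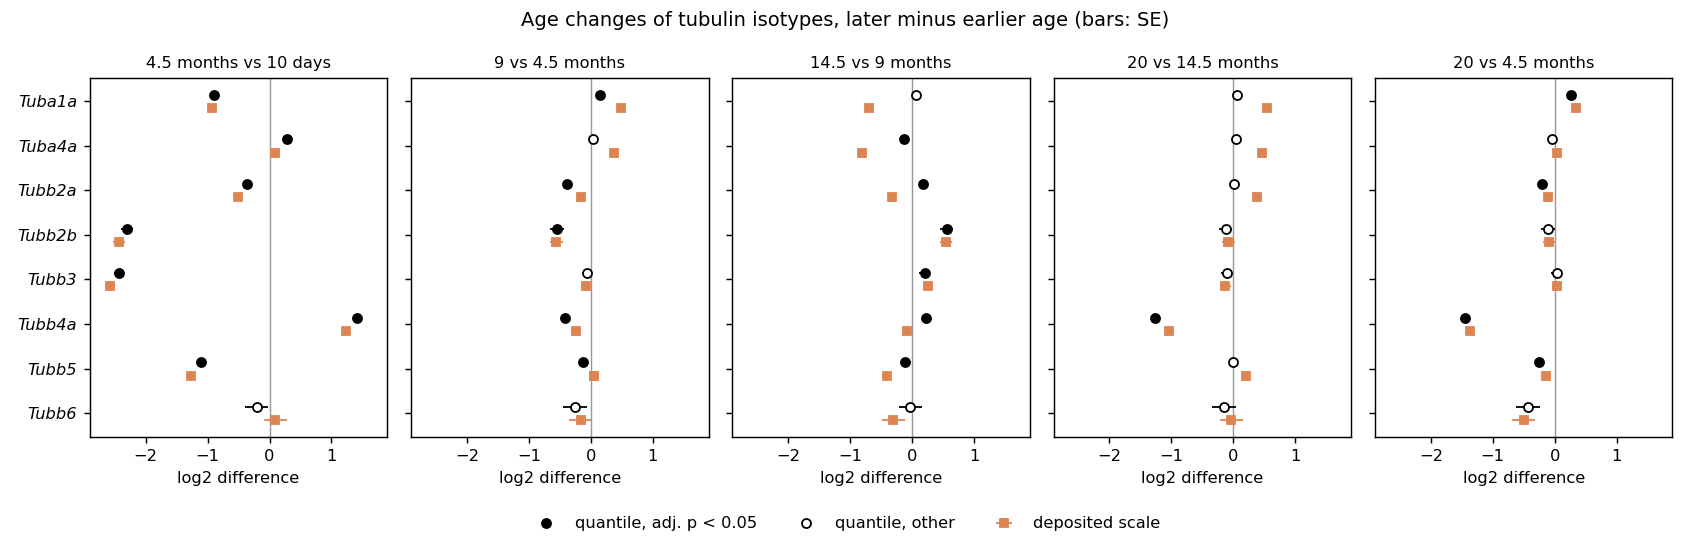
Log2 difference, later minus earlier age (x axis, bars show the SE), of the 8 isotypes (y axis) in 5 comparisons of age, with black points after quantile normalization (filled where the adjusted p was under 0.05) and orange squares on the deposited scale. At 4.5 months against 10 days the scales part most for Tubb6 (-0.21 and 0.10) and Tuba4a (0.29 and 0.08), and at 14.5 against 9 months for Tuba1a, Tuba4a, Tubb2a, Tubb4a, Tubb5 and Tubb6.

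Ordered within each gene by the means over both genotypes, Tubb3 ran from 13.24 at 10 days through 10.82, 10.75, 10.96 and 10.85 at the later ages, and neighbouring adult ages differed by no more than 0.20. Tubb2b ran from 14.15 through 11.85, 11.30, 11.86 and 11.74. Tubb5 ran from 14.40 through 13.30, 13.17, 13.05 and 13.04. The SD over the 6 or 7 mice of an age was 0.06 to 0.23 for Tubb3, 0.09 to 0.25 for Tubb2b and 0.03 to 0.13 for Tubb5.

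The question of the study, how life-long over-expression of Glud1 in neurons changes the hippocampus, was put to the isotypes at each age. No isotype passed the test between Tg and wt at any age. The counts were 0 of 8 at 10 days (0.00779% of all genes), 0 of 8 at 4.5 months (0% of all genes), 0 of 8 at 9 months (2.99% of all genes), 0 of 8 at 14.5 months (0% of all genes) and 0 of 8 at 20 months (0.0389% of all genes), by limma with Benjamini-Hochberg adjustment. At an unadjusted p under 0.05 there were 0, 1, 1, 0 and 1 isotypes at the 5 ages. The largest of these was Tubb3 at 9 months, with 10.79, 10.31 and 10.71 in Tg and 10.97, 10.86 and 10.88 in wt mice, a difference of -0.30 ± 0.12 (adjusted p = 0.15). Tubb5 at 4.5 months was lower in every Tg than in every wt mouse, by 0.20 ± 0.05 (adjusted p = 0.52), and Tubb4a at 20 months was higher in every Tg than in every wt mouse, by 0.19 ± 0.07 (adjusted p = 1.0). On the further probe set of Tubb5 the genotypes overlapped at 4.5 months, with 9.50, 9.58 and 9.54 in Tg and 9.46, 9.66 and 9.84 in wt mice.

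Tests over several ages gave the same counts. The F-test of the 5 differences called 0 of 8 isotypes (0.195% of all genes), that of 10 days, 4.5 and 9 months 0 of 8 (0.888% of all genes) and that of 9, 14.5 and 20 months 0 of 8 (0.506% of all genes). The interaction of genotype and age called 0 of 8 (0.0623% of all genes), so no age change of an isotype was shown to differ between Tg and wt mice. At an unadjusted p under 0.05 these tests had 2, 1, 0 and 1 isotypes. The smallest adjusted p over them was 0.12, of Tubb5 at the 3 earlier ages, where its further probe set had 0.86 in the same F-test. Such results do not show that the genotypes are alike, and 3 mice per group leave an SE of 0.05 to 0.27 on each difference.

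**Figure D4:**
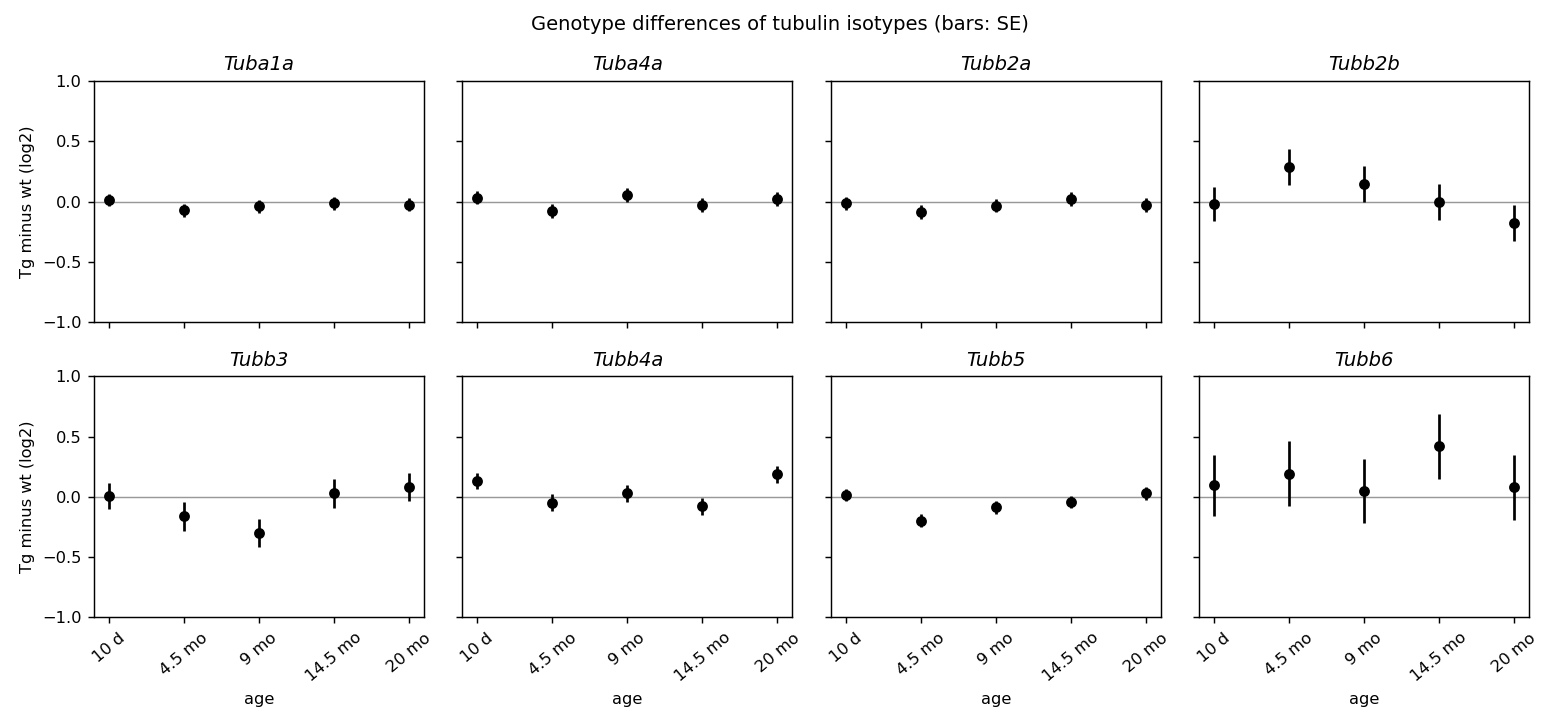
Tg minus wt difference (y axis, log2, bars show the SE) of the 8 isotypes at 5 ages (x axis). The differences run from -0.30 for Tubb3 at 9 months to 0.42 for Tubb6 at 14.5 months, and 0 of 8 isotypes passed the test at any age.

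Among the shared probe sets, the one listed for Tubb2b and Tubb2a-ps2 was higher in Tg at 9 months, with 10.48, 10.30 and 11.20 in Tg and 10.24, 9.90 and 10.10 in wt mice, by 0.58 ± 0.16 (adjusted p = 0.048). Every Tg mouse lay above every wt mouse, and the difference was 0.31 without Tg replicate 3, where the call was lost. The probe set of Tubb2b alone was at 0.14 ± 0.15 at that age (adjusted p = 0.65). The call was lost under 26 of 39 alternatives, 21 of which left out 1 mouse, and the part of the β-actin ratio, lower in Tg at that age, was not tested.

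Genes with the most similar course were found for the 4 isotypes whose group means spanned at least 1 on the log2 scale, by the root mean square difference over the 10 centred group means. For Tubb3 they were Gnb4, Tet1 and Gap43 at 0.13, 0.16 and 0.18, against a median of 0.97 over all genes, of which Gap43 encodes a growth cone protein. For Tubb2b they were Cybrd1, Rnd1 and Masp1 at 0.15, 0.16 and 0.17, against 1.01. For Tubb5 they were Fkbp1b, Zfp41 and Slc7a1 at 0.07, 0.07 and 0.08, against 0.55. For Tubb4a, with its low ends at both extremes of age, they were Trp53i11, Zfp385a and Adgrb2 at 0.09, 0.10 and 0.12, against 0.69. The groups share their arrays between genes, and likeness of course is a description.

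Genes that fold, cap, modify or bind tubulin were set beside the isotypes. Of the other α and β genes, 3 of 6 were tested, and between 4.5 months and 10 days Tubb4b, a broadly expressed β-tubulin, fell by 0.28 ± 0.05 and Tuba8 rose by 0.38 ± 0.13, while Tubb1, the β-tubulin of platelets, was at 0.13 ± 0.23. Tuba8 and Tubb1, 2 of the 3 tested, were lower in Tg than in wt mice at 9 months, where 2.99% of all genes differed. The differences were 0.91 ± 0.19 (adjusted p = 0.0089) and 1.38 ± 0.34 (adjusted p = 0.023). The signals of Tuba8 and Tubb1 are not given here, and these calls were made after quantile normalization only, without the alternatives run for the isotypes. The β-actin ratio was lower in every Tg mouse at that age, and its part in these calls was not tested. Between 20 and 4.5 months Tubb4b fell by 0.19 ± 0.06 and Tuba8 rose by 0.35 ± 0.14, and neither passed the test on the deposited scale.

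Newly made tubulin is folded by a chaperonin and a set of cofactors. Of 16 folding cofactors and chaperonin subunits, 13 fell and 3 rose between 4.5 months and 10 days, with a median of -0.62, where 35.5% of all genes were lower and 31.2% higher. Cct4, a chaperonin subunit, fell by 0.83 ± 0.04, Tbca, which holds folded β-tubulin, by 0.77 ± 0.05 and Tbcb, which holds α-tubulin, by 0.65 ± 0.04. Between 20 and 4.5 months 7 rose and 1 fell, where 22.4% of all genes were higher and 19.9% lower. Cct4 was up by 0.53 ± 0.04, Cct8 up by 0.41 ± 0.05 and Tbcel, which lowers tubulin stability, down by 0.86 ± 0.09. Tbcb, 1 of the 16, was lower in Tg than in wt mice at 9 months, by 0.28 ± 0.06 (adjusted p = 0.016), where 2.99% of all genes differed. This call too was made after quantile normalization only. The β-actin ratio was lower in Tg at that age, and its part was not tested.

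Of the 4 stathmins, which bind free αβ dimers, all fell between 4.5 months and 10 days, where 35.5% of all genes were lower. Stmn2 was down by 1.32 ± 0.04, Stmn4 by 1.17 ± 0.07 and Stmn3 by 0.68 ± 0.04. Stmn2 was also among the neuronal markers above, so the counts of both lists share this gene. Between 20 and 4.5 months 1 fell, where 19.9% of all genes were lower. It was Stmn2, by 0.41 ± 0.04, while Stmn4 was at 0.07 ± 0.07 and Stmn3 at -0.02 ± 0.04. Of 12 γ-, δ- and ε-tubulin and γ-tubulin ring genes, whose products start and anchor microtubules, 6 rose and 3 fell between 4.5 months and 10 days. Over all genes 31.2% were higher and 35.5% lower at that step. Tubg1, the main γ-tubulin, fell by 0.81 ± 0.05 and Mzt2 by 0.76 ± 0.07, whereas Mzt1 rose by 0.78 ± 0.07. At 20 against 4.5 months 3 rose and 2 fell, where 22.4% of all genes were higher and 19.9% lower. Tubg1 was up by 0.37 ± 0.06, Tubg2 down by 0.27 ± 0.08 and Tubgcp6 down by 0.38 ± 0.12.

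Of 16 tested enzymes that add or remove tyrosine and glutamate on tubulin tails, 5 rose and 8 fell between 4.5 months and 10 days, where 31.2% of all genes were higher and 35.5% lower. The share that rose was thus near that of all genes. Ttl, which puts the terminal tyrosine back on α-tubulin, fell by 1.31 ± 0.05 and Svbp, the partner of the detyrosinating vasohibins, by 0.99 ± 0.06, while Ttll11, a polyglutamylase, rose by 1.36 ± 0.09. Between 20 and 4.5 months 3 rose and 2 fell, where 22.4% of all genes were higher and 19.9% lower. Ttl was up by 0.35 ± 0.06, the deglutamylase Agbl5 down by 0.72 ± 0.13 and Ttll11 down by 0.38 ± 0.09. The acetyltransferase Atat1 and the deacetylase Hdac6 fell by 1.18 ± 0.08 and 0.50 ± 0.08 between 4.5 months and 10 days, and the deacetylase Sirt2 rose by 0.37 ± 0.07. All 3 fell between 20 and 4.5 months, where 19.9% of all genes were lower. Hdac6 fell by 0.42 ± 0.08, Sirt2 by 0.34 ± 0.07 and Atat1 by 0.29 ± 0.08.

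Of 5 tested severing enzymes, 2 rose and 2 fell between 4.5 months and 10 days, where 31.2% of all genes were higher and 35.5% lower. Spast, which cuts microtubules in axons, was down by 0.81 ± 0.05, Katnal1 up by 0.80 ± 0.06 and Fignl1 down by 3.05 ± 0.53. The SE of Fignl1 was the widest of these, and its signals are not given here. If only the mice at 10 days carried it through the filter on low signals, it could hardly have risen, so its fall is uncertain. At 20 against 4.5 months 1 rose (0 on the deposited scale), where 22.4% of all genes were higher. It was Katna1, by 0.28 ± 0.11, and Katnal2 and Spast were at 0.48 ± 0.23 (adjusted p = 0.11) and 0.11 ± 0.05 (adjusted p = 0.11).

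**Figure D5:**
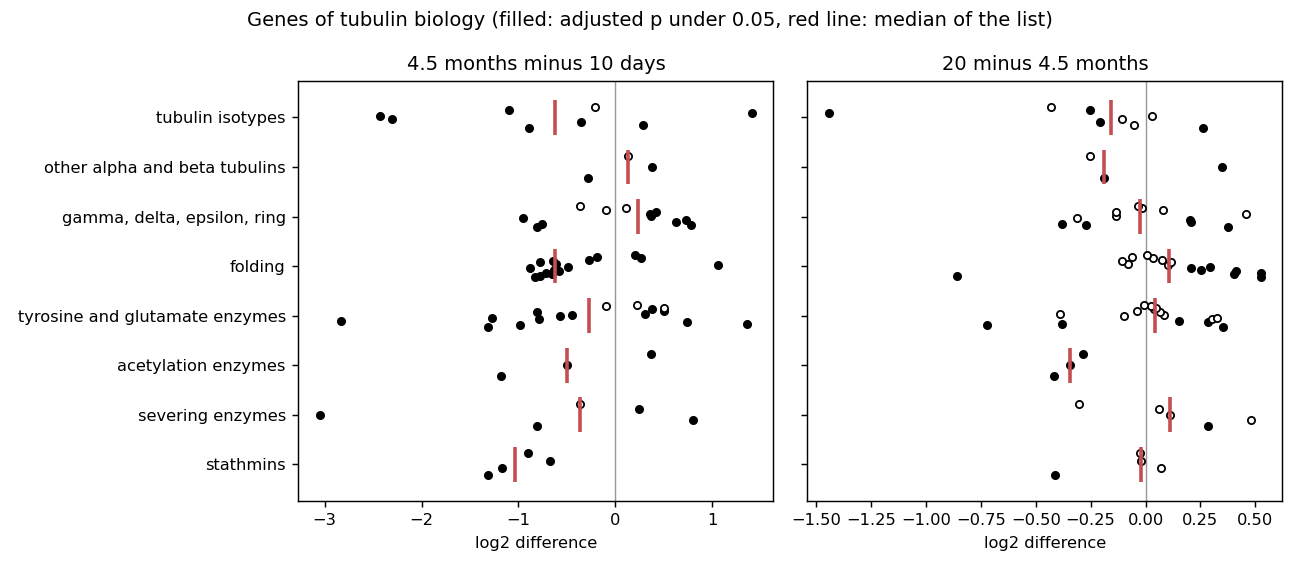
Log2 difference (x axis) of each gene in 8 groups of tubulin biology (y axis), at left 4.5 months minus 10 days and at right 20 minus 4.5 months, filled where the adjusted p was under 0.05 and with a red line at the median of each group. At left the stathmins lie wholly below 0 and the folding genes mostly so, with medians of -1.03 and -0.62; at right Tubb4a stands alone among the isotypes at -1.44.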

How the data were processed

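Hippocampal RNA of 31 mice was measured on 1-colour Affymetrix mouse genome arrays. The deposited table holds linear signal intensities that the authors made with MAS5 (version not given in the sources used here), scaled to a trimmed mean of 500.002 with 2% trimmed from each end. The methods also describe RMA values, which were not used here. The log2 of each intensity was quantile normalized across the 31 arrays, after 64 control probe sets were set aside. Probe sets above the array median on at least 3 arrays were tested. A gene is shown by its tested probe set with the highest mean. Limma 3.58.1 in R 4.3.3 fitted 10 group means with trended, robust moderation. P-values were adjusted by Benjamini-Hochberg over 26877 probe sets, with calls at an adjusted p under 0.05. SE values come from the fit. The fit was tested on simulated data. The methods name SAM, Cyber-T and EDGE, which were not run.

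The number of arrays limits the precision, and no detection calls were used. Of the probe sets, 34945 are listed for 1 gene, 932 for several and 9160 for none, and 34741 were matched through a gene identifier. Members, lists and tests were chosen with earlier results of these data known. Genes of each tubulin list were named by a rule, up to 3 with the smallest p at 4.5 months against 10 days and up to 3 at 20 against 4.5 months, and any that differed between Tg and wt. Promoter windows came from RefSeq on GRCm38.p6 for 6 of the 8 genes. Alternatives were the deposited scale, an offset of 50, other filters and thresholds, moderation without trend, a replicate block, the median over probe sets, arrays of the ages compared and leaving out each mouse. Signals shared with a pseudogene, the second probe set of Tubb6 and a fit without the arrays at 4.5 months were added after the data were seen.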

Additional observations from a re-analysis of the deposited data

Results flagged for a closer look

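In the dimmest probe set of Tuba4a, wt replicate 1 at 10 days stood apart from the other 3 wt mice of that age, at a log2 signal of 4.79 against 6.99 to 7.11. The gap was 0.95 of the range of the group. The same was asked of 18 tubulin probe sets in the 1 group with 4 mice, and chance alone flags about 1 in 20 such groups.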

How the results depend on the processing

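Of 45 single values, 27 were called. Their 1056 alternatives kept direction and call in 1012, lost the call in 38 and reversed in 6. Of 8 isotypes, 7 changed at 4.5 months against 10 days without any 1 mouse, and the other counts ran from 4 to 5 at 20 against 4.5 months, stayed at 5 at 9 against 4.5 months, ran from 5 to 7 at 14.5 against 9 months and stayed at 1 at 20 against 14.5 months. The counts of 0 between Tg and wt held under every alternative that gave one.

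On the deposited scale the count at 20 against 14.5 months was 5, and it was 2 by the median over probe sets and 2 with the shared probe sets counted. At 14.5 against 9 months it was 3 by the median over probe sets. At a fold of 1.3 and an adjusted p of 0.01, it was 1 at 14.5 against 9 months, 1 at 20 against 4.5 months and 3 at 9 against 4.5 months. The last 3 follow from the stricter threshold, and for the others the cause was not tested.

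Without quantile normalization the sign turned for Tubb6 at 4.5 months against 10 days (0.10), Tuba4a at 20 against 4.5 months (0.029), Tubb5 at 9 against 4.5 months (0.052) and at 20 against 14.5 months (0.21), and at 14.5 against 9 months for Tuba1a (-0.70), Tubb2a (-0.32) and Tubb4a (-0.087). By the median over probe sets it turned for Tuba4a at 4.5 months against 10 days (-0.0082), at 20 against 4.5 months (0.25) and at 14.5 against 9 months (0.074), for Tubb2a at 14.5 against 9 months (-0.025), and for Tubb6 at 20 against 4.5 months (0.20) and 14.5 against 9 months (0.76). Leaving out 1 mouse turned values near 0, with ranges of -0.036 to 0.080 for Tubb3 at 20 against 4.5 months, -0.13 to 0.012 for Tubb3 at 9 against 4.5 months, -0.14 to 0.079 for Tubb6 at 14.5 against 9 months, -0.014 to 0.022 for Tubb2a and -0.018 to 0.017 for Tubb5 at 20 against 14.5 months. The rise of Tubb3 at 14.5 months was 0.13 to 0.25 without 1 mouse.

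The share of called genes that were higher was 53.2% on the deposited scale and 46.8% after quantile normalization at 4.5 months against 10 days, where the median of all probe sets was 0.14 and 0.01. In the paired fit with the replicate number as a block, 7, 4, 5, 6 and 1 isotypes were called in the 5 comparisons of age and 0 between Tg and wt, so it changed no count. The numbers did not pair the mice, since 0 of 15 pairs had deviations that correlated above 0.1 (-0.11 to 0.05). The fit with the arrays of the ages compared gives no value for the tests over 5 ages. RMA, SAM, EDGE and Cyber-T were not run. Each difference between genotypes rests on 3 or 4 mice, and signals below the array median have an uncertain scale.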
